A study of Canis lupus familiaris with 32 samples.

Results

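ENSCAFG00000017302 and ENSCAFG00000020059 are 2 of the 24580 dog genes listed in an RNA sequencing study of hip soft tissue. They were chosen by the fold change between affected and adult control hip joint capsules, as the 2 genes with the largest falls among those called lower in affected capsules. The values of that comparison are therefore given as a description without a test. The files list genes by Ensembl identifier, and the reference table used for names paired 0 of the listed identifiers with a symbol, so what the proteins do is not stated here. The marker genes of the tissues could not be looked up for the same reason, and the tissue names are those of the labels.

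The series studied natural dysplasia of the hip in dogs, with 32 libraries from 25 dogs in 7 groups that differ in tissue, disease and age. The hip joint capsule was taken from 4 affected dogs (1 adult and 3 of 4 months of age), 5 adult control dogs and 6 young dogs under 1 month of age. The teres ligament was taken from 7 affected dogs (4 adult and 3 of 4 months), 3 adult control dogs and 4 young dogs under 1 month, and the embryonic hip from 3 embryos. Each library of a group is from a separate dog by the labels' identifiers, and 7 dogs are represented in both tissues. The labels name no breed, sex, drug or genetic alteration, and they do not state how the disease was diagnosed or whether the young dogs were free of it.

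The capsule is a fibrous, collagen-rich sleeve around the joint with a synovial lining, and the teres ligament, or ligament of the head of the femur, is an intra-articular band that ties the femoral head to the acetabulum. Both help to hold the femoral head in its socket. Hip dysplasia in dogs is a developmental disorder in which laxity of the joint in the growing animal precedes a poor fit of head and socket and later osteoarthritis. Connective tissue of this kind is rich in dividing, matrix-making cells before and shortly after birth, and holds fewer cells in more matrix in the adult.

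Library totals lay between 2857235 and 9895143 fragments, with a median of 4993068. Levels are given as CPM (fragments of a gene relative to the library total), on library sizes scaled by the trimmed mean of M values (TMM) over all 32 libraries. At these depths 3 fragments, used here as the limit of detection, were worth 0.354 to 0.993 CPM. Several of the levels below lie near that limit. Intervals given for ratios of fragments and shares of fragments are exact 95% binomial intervals and cover counting error only. The RNA was taken from whole tissue, in which fewer cells that express a gene and less RNA per cell cannot be told apart.

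In the capsules that chose them, both genes were plainly detected in adult controls and nearly undetected in affected dogs. ENSCAFG00000017302 had 17.8, 14.6, 16.9, 39.3 and 9.28 CPM in the 5 control capsules, from 47 to 159 fragments each. In the 4 affected capsules it had 0, 0.568, 0.386 and 0 CPM, from 0, 3, 2 and 0 fragments. The adult affected dog and 1 dog of 4 months were those at 0. ENSCAFG00000020059 had 8.07, 3.93, 19.1, 14.6 and 2.96 CPM in the control capsules, from 15 to 96 fragments, and 0.769, 0.189, 0 and 0.234 CPM in the affected capsules, from 3, 1, 0 and 1 fragments. The adult affected dog was here the highest of its group. No affected library reached the lowest control for either gene. All affected capsules lay below all controls for 153 of the 12718 genes tested (1.20%), and nothing is read from this, since the order chose the genes.

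Over pooled fragments, the control level of ENSCAFG00000017302 was 70.2 times the affected level (interval 29.8 to 217, from 420 against 5 fragments). For ENSCAFG00000020059 the ratio was 35.9 (15.2 to 112, from 215 against 5 fragments). The control dogs themselves spread widely, from lowest to highest by 4.24-fold for ENSCAFG00000017302 and by 6.45-fold for ENSCAFG00000020059, and in different orders. Replicate 4 was highest for ENSCAFG00000017302 and replicate 3 for ENSCAFG00000020059, while replicate 5 was lowest for both. On the deposited FPKM scale, which is per length, ENSCAFG00000017302 stood above 26.4% to 53.2% of the genes detected in each control capsule, so it was a gene of low to middling level there. Of the 12718 genes, 30 were called in this comparison (0.236%), 13 of them lower in affected capsules (0.102%). All 13 had at least 5 CPM in controls and no overlap between the groups. The fitted log2 fold changes were -6.06 (SE 0.68) and -5.0 (SE 0.81) for the 2 genes, and -3.57 (SE 0.44) for the next in order, ENSCAFG00000007557, at 8.86 ± 5.97 CPM (SD, n = 4) in affected and 89.9 to 125 CPM in the 5 control capsules.

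Age class and disease move together in 3 of the 4 affected capsules, since all controls were adult, and the parts of age and disease in those 3 cannot be told apart. The adult affected capsule, at the age class of the controls, had 0 fragments of ENSCAFG00000017302 and 3 fragments of ENSCAFG00000020059, in a library of 4034794 fragments. The share of all fragments taken by the 10 most abundant genes was 24.7% to 30.4% in affected and 18.7% to 25.3% in control capsules, and the part of this share in the result was not tested.

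**Figure D1:**
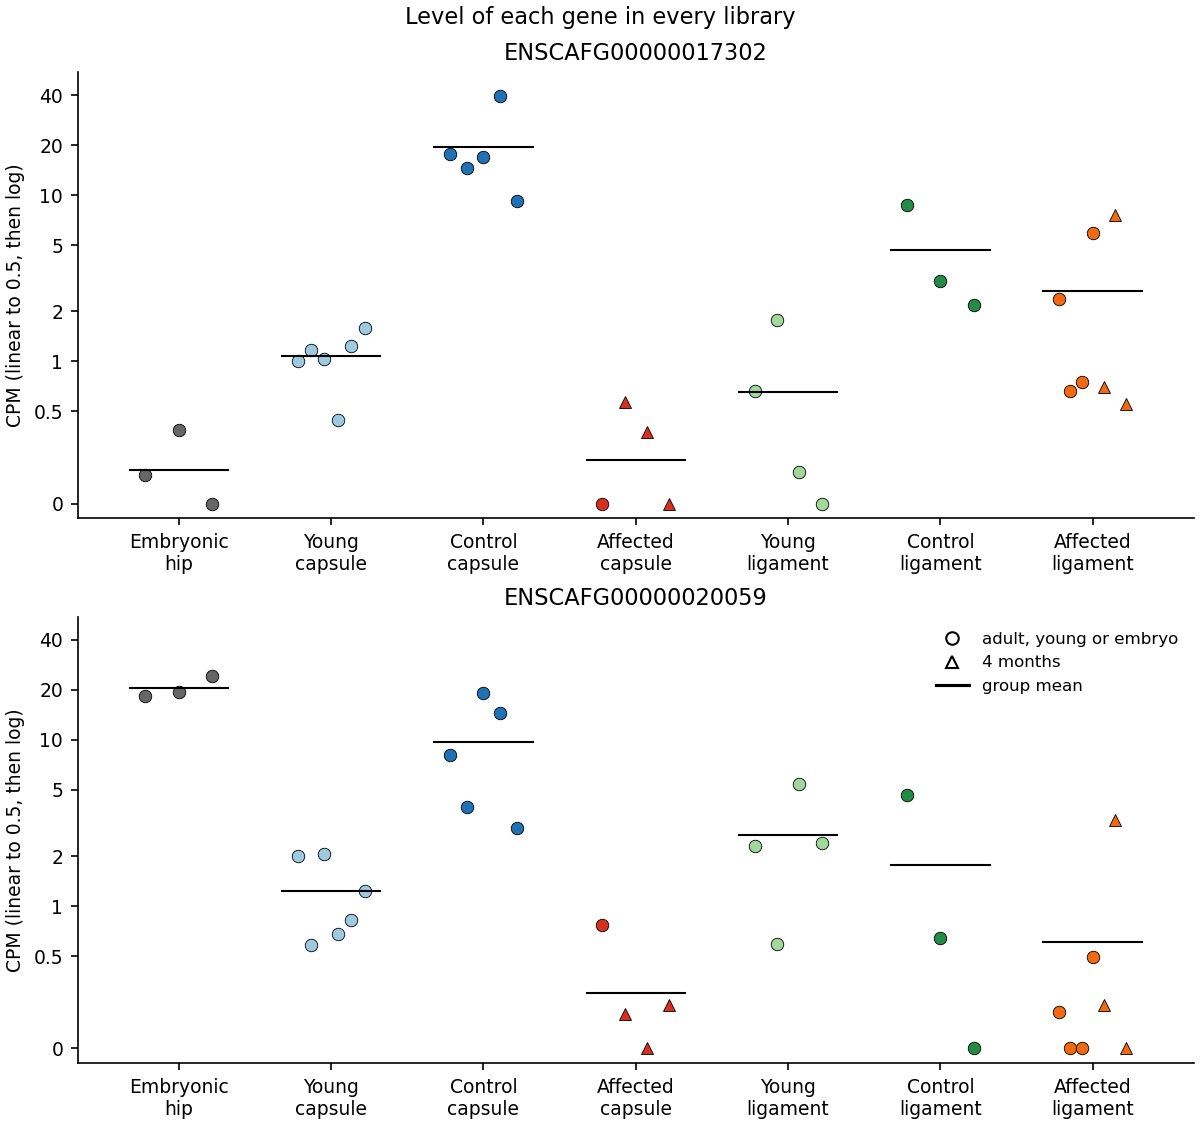
CPM (vertical axis, linear up to 0.5 and logarithmic above) of each gene in every library, by group, where each point is 1 library, triangles are dogs of 4 months and lines are group means. ENSCAFG00000017302 was highest in control capsules and near 0 in embryos and affected capsules, while ENSCAFG00000020059 was highest in the 3 embryonic hips, at 18.3 to 24.4 CPM.

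Young capsules had low but mostly detectable levels of both genes. ENSCAFG00000017302 ranged from 0.455 to 1.59 CPM over the 6 young capsules, with a median of 1.11. ENSCAFG00000020059 ranged from 0.587 to 2.07 CPM, with a median of 1.03. Every young capsule lay below every control capsule for both genes, as it did for 7.62% of the 17235 genes with at least 3 fragments over these libraries. Since the control capsules helped to choose the genes, these values are a description as well. Pooled fragments gave a control level 17 times the young level for ENSCAFG00000017302 (interval 11.9 to 25.1) and 7.78 times for ENSCAFG00000020059 (5.47 to 11.3). Affected and young capsules overlapped for both genes. The highest affected capsule for ENSCAFG00000017302 (replicate 2, of 4 months, at 0.568 CPM) stood above the lowest young capsule. That for ENSCAFG00000020059 was another dog (replicate 1, adult, at 0.769 CPM) and stood above the lowest 2 young capsules. No affected capsule reached the young median for either gene. Over pooled fragments the young level was 4.12 times the affected level for ENSCAFG00000017302 (1.6 to 13.5) and 4.62 times for ENSCAFG00000020059 (1.81 to 15.1), on 5 affected fragments for each gene. The affected capsules also helped to choose the genes, for their low levels, so these ratios are a description and no test of affected against young.

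In embryos the 2 genes parted. ENSCAFG00000020059 had 18.3, 19.4 and 24.4 CPM in the 3 embryonic hips, from 120, 146 and 183 fragments. Its embryonic mean of 20.7 ± 3.23 CPM (SD, n = 3) was the highest of the 7 groups, and the spread between the embryos was small beside that of the control capsules, at 9.73 ± 6.96 CPM (n = 5). The identifiers of the 3 embryos are consecutive, and whether they share a litter is not given in the sources used here. Their spread, and the tests below that rest on it, may thus not stand for unrelated animals. ENSCAFG00000017302 had 0.153, 0.399 and 0 CPM in the same libraries, from 1, 3 and 0 fragments, so all 3 were at or under the limit of detection.

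Neither the embryonic hips nor the young tissues were used to choose the genes, and comparisons among them were tested. Each test was edgeR's quasi-likelihood test over all genes of the comparison, with Benjamini-Hochberg adjustment. ENSCAFG00000020059 was higher in embryonic hip than in young capsule by 4.01 on the log2 scale (SE 0.31, edgeR adjusted p = 1.07e-06), a 16.1-fold difference. The lowest embryo, at 18.3 CPM, stood far above the highest young capsule, at 2.07 CPM. Of the 13585 genes tested, 43.1% were called in this comparison, 20.3% higher in embryos, and the embryos lay above all young capsules for 19.0% of genes with at least 3 fragments. Being called here was therefore common. Against the 4 young ligaments, at 2.31, 0.59, 5.43 and 2.4 CPM, the embryonic level of ENSCAFG00000020059 was higher by 2.96 (SE 0.49, edgeR adjusted p = 0.000866), or 7.78-fold. No young ligament reached the embryos, where 47.3% of 13462 genes were called, 23.0% higher in embryos, and 24.8% of genes with at least 3 fragments had no overlap in that direction. The embryonic hip differs from both young tissues in age and in dissected tissue at once, and age and tissue cannot be told apart here.

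For ENSCAFG00000017302 these comparisons rest on few fragments, 4 in all embryos, 33 in all young capsules and 20 in all young ligaments, and the gene was removed by the filter on low counts. Without that filter its embryonic level was lower than that of young capsules, with a log2 fold change of -2.47 (SE 0.78, edgeR adjusted p = 0.0228), among 32.9% of genes called in the unfiltered fit. All 3 embryos lay below all 6 young capsules, as they did for 15.5% of genes with at least 3 fragments. The call was lost when any 1 of 3 libraries was left out (edgeR adjusted p = 0.0743 without embryo replicate 1, 0.0729 without embryo replicate 3 and 0.0511 without young capsule replicate 6) and when all groups shared 1 fit (0.0933). Pooled fragments gave a young capsule level 5.96 times the embryonic one (2.12 to 23.2). Against young ligaments the unfiltered log2 fold change was -1.87 (SE 1.19, edgeR adjusted p = 0.25, with 35.1% of genes called), with an approximate 95% interval (1.96 SE) of -4.20 to 0.47.

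**Figure D2:**
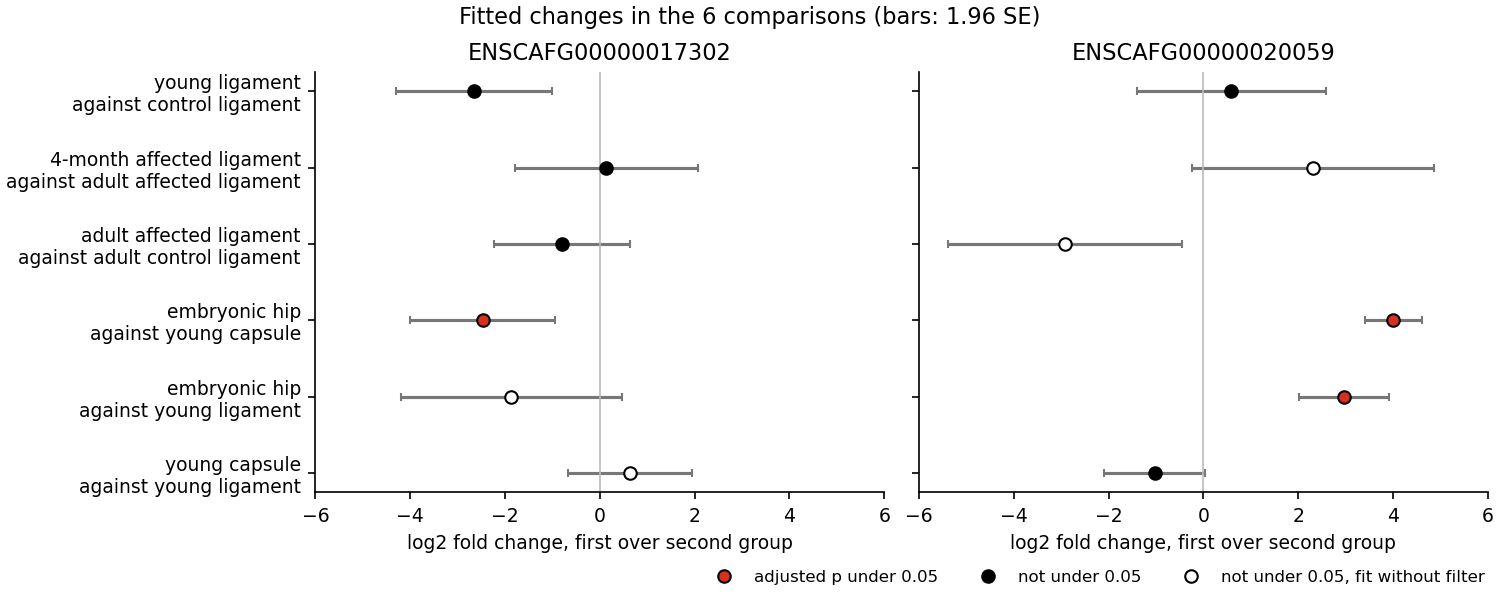
Fitted log2 fold changes of each gene in the 6 tested comparisons (horizontal axis, group named before over group named after "against"), with bars of 1.96 SE and red points for an edgeR adjusted p under 0.05. ENSCAFG00000020059 was called in both comparisons with the embryonic hip, at 4.01 and 2.96, and the red point of ENSCAFG00000017302, at -2.47, comes from the fit without the filter.

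The teres ligament, which the choice of genes did not use, had higher values of ENSCAFG00000017302 in adult controls than in young dogs, though the difference did not pass the main test. The control ligaments had 8.71, 3.06 and 2.18 CPM, from 43, 19 and 11 fragments. The dog of the highest one, replicate 1, also gave control capsule replicate 3, which helped to choose the genes for high control levels. Young ligaments had 0.661, 1.77, 0.17 and 0 CPM, from 4, 15, 1 and 0 fragments. All young ligaments lay below all controls, as they did for 9.65% of genes with at least 3 fragments. The log2 fold change of young over control ligament was -2.66 (SE 0.84), with an approximate interval of -4.30 to -1.01. Its edgeR adjusted p was 0.0781, in a comparison in which 10.3% of 12701 genes were called. DESeq2 (adjusted p = 0.0226) and an edgeR fit over all groups (0.0321) put it past the threshold. So did the edgeR fit without young ligament replicate 2 (0.0242). The other alternatives did not. The edgeR adjusted p rose to 0.262 without control replicate 1, where the log2 fold change was -1.86. It rose to 0.184 without young replicate 3 and to 0.15 without young replicate 1. The call depends on these choices, while the direction did not change under any alternative run.

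ENSCAFG00000020059 showed no such separation in the ligament. Its control values were 4.66, 0.645 and 0 CPM, from 23, 4 and 0 fragments, and its young values, given above, ran from 0.59 to 5.43 CPM. The groups overlapped, with a log2 fold change of young over control of 0.59 (SE 1.01, edgeR adjusted p = 0.756) and an approximate interval of -1.40 to 2.58. Without young ligament replicate 3, the highest of its group, the value was -0.000687. These intervals leave room for several-fold differences in either direction.

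All 7 affected ligaments held fragments of ENSCAFG00000017302, at levels that spread widely. The 4 adult affected ligaments had 2.37, 0.662, 0.752 and 5.92 CPM, from 12, 2, 3 and 36 fragments, and the 3 of 4 months had 0.7, 7.6 and 0.551 CPM, from 3, 32 and 3 fragments. Over all 7 the lowest value was 0.551, the median 0.752 and the highest 7.6 CPM. They comprised 3 libraries above 2 CPM (2 adult, 1 of 4 months) and 4 below 1 CPM. The higher ones lay within the control range of 2.18 to 8.71 CPM, and the lower ones lay below every control ligament. The lowest affected ligament was just below the highest affected capsule, at 0.568 CPM.

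ENSCAFG00000020059 was nearly undetected in affected ligaments apart from 1 library. The adult ligaments had 0.197, 0, 0 and 0.493 CPM and those of 4 months 0.233, 3.32 and 0 CPM. Replicate 6, a dog of 4 months, gave 14 of the 19 fragments found in the 7 libraries. The same library was highest for ENSCAFG00000017302.

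Among adult dogs, affected and control ligaments were compared at the same age class. The log2 fold change was -0.80 (SE 0.73, edgeR adjusted p = 0.535) for ENSCAFG00000017302, with an approximate interval of -2.23 to 0.64. It was -1.72 without affected replicate 4 and -0.00296 without control replicate 1. For ENSCAFG00000020059, which the filter removed, the unfiltered value was -2.92 (SE 1.26, edgeR adjusted p = 0.318), with an interval of -5.39 to -0.46, and 4 affected fragments stood against 27 in controls. Of those 27 fragments, 23 came from control replicate 1, and without it the value was -0.64. That ligament is from the dog whose capsule, control replicate 3, helped to choose the genes. In this comparison edgeR called 0 of 12505 genes (0%), with 2374 at an unadjusted p under 0.05. Without the filter it also called 0 of 18219 (0%), with 2652 at an unadjusted p under 0.05. DESeq2 called 63, and edgeR called 1850 without control replicate 3, so neither gene's missing call shows that its level was the same.

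Between the ages, affected ligaments of 4 months and of adults overlapped for both genes. The 3 dogs of 4 months also gave affected capsules, which helped to choose the genes for low levels. ENSCAFG00000017302 had a log2 fold change of 0.14 for 4 months over adult (SE 0.98, edgeR adjusted p = 0.938), where 14.6% of 12619 genes were called. Without replicate 6 it was -2.02 (edgeR adjusted p = 0.229). ENSCAFG00000020059 had an unfiltered value of 2.31 (SE 1.30, edgeR adjusted p = 0.301), where 9.06% of genes were called, and -0.81 without replicate 6. The value of ENSCAFG00000017302 was also negative without replicate 2 (-0.12), without replicate 3 (-0.14) and by limma on FPKM (-0.07), so it has no settled sign. That of ENSCAFG00000020059 was negative without replicate 6 and positive without any other 1 library. The 3 dogs of 4 months have identifiers that begin alike, as does that of 1 young dog and of 0 of the adult affected and control dogs, and what the beginning stands for is not given in the sources used here.

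Capsule and ligament were compared at 1 age class in the young dogs. ENSCAFG00000020059 had a log2 fold change of capsule over ligament of -1.03 (SE 0.54, edgeR adjusted p = 0.331), with an approximate interval of -2.10 to 0.03, where 6.09% of 12773 genes were called. With the dog as a block, in the 3 dogs that gave both tissues, it was -0.43 and 3.86% of 12632 genes were called. ENSCAFG00000017302, without the filter, had 0.64 (SE 0.67, edgeR adjusted p = 0.68, 4.37% of genes called) and an interval of -0.68 to 1.95. Neither gene passed the test, and the intervals include no difference.

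In adult controls the capsule held more of both genes than the ligament. The lowest control capsule for ENSCAFG00000017302, at 9.28 CPM, stood just above the highest control ligament, at 8.71 CPM, an order without overlap that 2.90% of genes with at least 3 fragments showed. Pooled fragments gave a capsule level 4.17 times that of the ligament (3.25 to 5.42). For ENSCAFG00000020059 the ratio was 5.77 (3.86 to 8.96), with overlap between the groups. The control capsules were used to choose the genes, and these are values without a test.

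Of the 7 dogs that gave both tissues, 3 were affected dogs of 4 months, 1 was an adult control and 3 were young. The capsules of the affected dogs and of the control dog helped to choose the genes, the former for low and the latter for high levels. Ratios of tissues in these dogs are therefore a description without a test. In 1 affected dog (capsule replicate 3, ligament replicate 6) ENSCAFG00000017302 had 2 fragments in the capsule and 32 in the ligament, which are 0.386 and 7.6 CPM. The ligament level was 19.7 times that of the capsule (5.02 to 169). The same dog had 0 and 14 fragments of ENSCAFG00000020059, a 5.74-fold higher level in the ligament if the capsule library is set at a floor of 3 fragments. The exact interval of that ratio, which also covers the counting error of the ligament fragments, begins at 4.08. The capsule of this dog was thus as low as those of the other affected dogs, while its ligament was the highest affected one for both genes. The other affected dogs had at most 3 fragments in either tissue for either gene, too few to order the tissues.

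The control dog with both tissues (capsule replicate 3, ligament replicate 1) went the other way, with a capsule among those that chose the genes. ENSCAFG00000017302 had 16.9 CPM in its capsule and 8.71 CPM in its ligament, a ratio of 1.94 (1.33 to 2.87). ENSCAFG00000020059 had 19.1 and 4.66 CPM, a ratio of 4.1 (2.58 to 6.77). Its capsule and its ligament were each the highest control of their tissue for ENSCAFG00000020059. In the 3 young dogs ENSCAFG00000020059 had 12 and 14, 3 and 5, and 7 and 12 fragments in capsule and ligament, and ENSCAFG00000017302 had 6 and 4, 6 and 15, and 9 and 0. The ligament CPM was the higher in 3 of 3 young dogs for ENSCAFG00000020059 and in 1 of 3 for ENSCAFG00000017302. For ENSCAFG00000020059 the ratios of ligament to capsule were 1.16 (0.497 to 2.74), 1.01 (0.196 to 6.48) and 1.95 (0.706 to 5.83). Each of these intervals includes no difference. A test of signs over 3 dogs cannot reach the threshold and none was made.

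**Figure D3:**
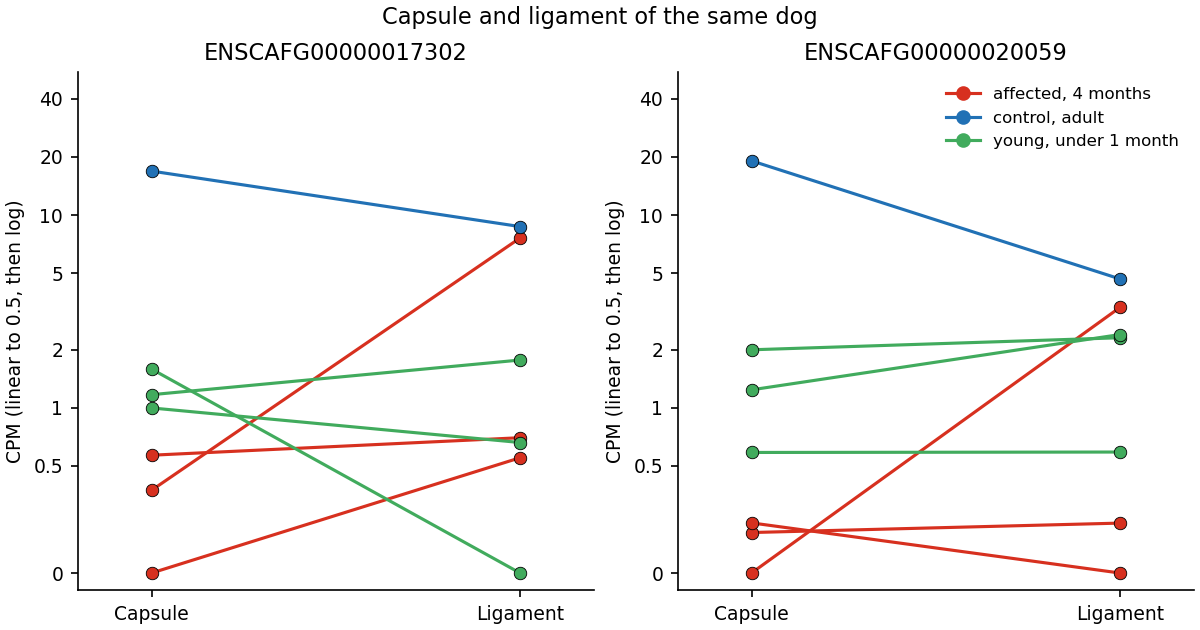
CPM (vertical axis, linear up to 0.5 and logarithmic above) of each gene in the capsule and the ligament of the 7 dogs that gave both, with 1 line per dog. The adult control slopes down towards the ligament for both genes, and 1 affected dog of 4 months rises from 0.386 to 7.6 CPM for ENSCAFG00000017302 and from 0 to 3.32 CPM for ENSCAFG00000020059. The affected and control capsules shown were among those that chose the genes.

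The order of the group means of ENSCAFG00000017302 was control capsule (19.6 ± 11.5 CPM, n = 5), control ligament (4.65 ± 3.54, n = 3), affected ligament (2.65 ± 2.92, n = 7), young capsule (1.08 ± 0.372, n = 6), young ligament (0.65 ± 0.797, n = 4), affected capsule (0.239 ± 0.285, n = 4) and embryonic hip (0.184 ± 0.201, n = 3), each with its SD. Among neighbours in this order, the step from control capsule to control ligament exceeded the SD of both groups, with no overlap of libraries. Every later pair of neighbours overlapped and differed by less than the larger SD. The affected capsule and the embryonic hip changed places when library totals were used in place of TMM sizes (0.219 and 0.232 CPM).

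For ENSCAFG00000020059 the order was embryonic hip (20.7 ± 3.23 CPM, n = 3), control capsule (9.73 ± 6.96, n = 5), young ligament (2.68 ± 2.01, n = 4), control ligament (1.77 ± 2.52, n = 3), young capsule (1.23 ± 0.66, n = 6), affected ligament (0.607 ± 1.21, n = 7) and affected capsule (0.298 ± 0.33, n = 4). The steps from embryonic hip to control capsule and from there to young ligament exceeded the larger SD, but libraries overlapped at both. At the former step, control capsule replicate 3, at 19.1 CPM, lay above the lowest embryo, at 18.3 CPM. With library totals the embryos averaged 26.8 CPM and no control capsule reached them. The remaining neighbours differed by less than the larger SD. By age class, in different dogs, the mean was high in the embryo and low in capsule and ligament under 1 month. It was higher again in the capsules of adult controls, which helped to choose the gene for high levels there. In the ligament the control mean, at 1.77 CPM, was not above the young mean, at 2.68 CPM.

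**Figure D4:**
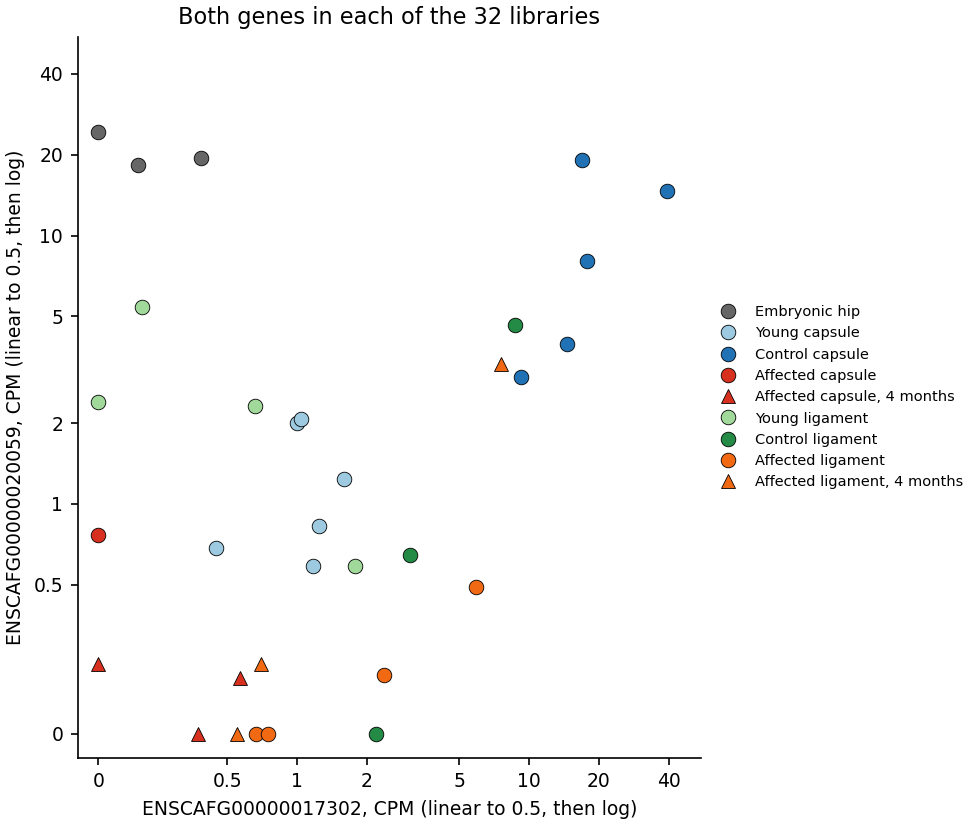
ENSCAFG00000017302 (horizontal axis) against ENSCAFG00000020059 (vertical axis) in CPM, both linear up to 0.5 and logarithmic above, with 1 point per library coloured by group and triangles for dogs of 4 months. Control capsules stand at the upper right, the 3 embryos at the upper left, and all affected capsules at the lower left.

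The balance between the 2 genes differed by group. The lengths implied by the deposited FPKM were similar, 2.73% shorter for ENSCAFG00000017302 in the median, so the fragments of both can be set side by side. Of the fragments of both genes together, ENSCAFG00000020059 made up 99.1% in embryos (97.8% to 99.8%, from 449 against 4), 75.9% in young ligaments (65.3% to 84.6%) and 52.9% in young capsules (40.6% to 64.9%). In adult controls it made up 33.9% in capsules (30.2% to 37.7%) and 27% in ligaments (18.6% to 36.8%). Single libraries weigh on these shares, and that of control ligaments was 11.8% (3.3% to 27.5%) without replicate 1. The share in affected ligaments was 17.3% (10.7% to 25.7%), with 7.02% in adults and 28.3% at 4 months, and was 7.81% (2.59% to 17.3%) without replicate 6. That in affected capsules, 50% of 10 fragments, could lie between 18.7% and 81.3%. By library, ENSCAFG00000020059 had more fragments than ENSCAFG00000017302 in 3 of 3 embryos, 3 of 4 young ligaments and 3 of 6 young capsules, but in 1 of 5 control capsules, 0 of 3 control ligaments and 0 of 7 affected ligaments. These shares pool the libraries of a group and are a description.

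**Figure D5:**
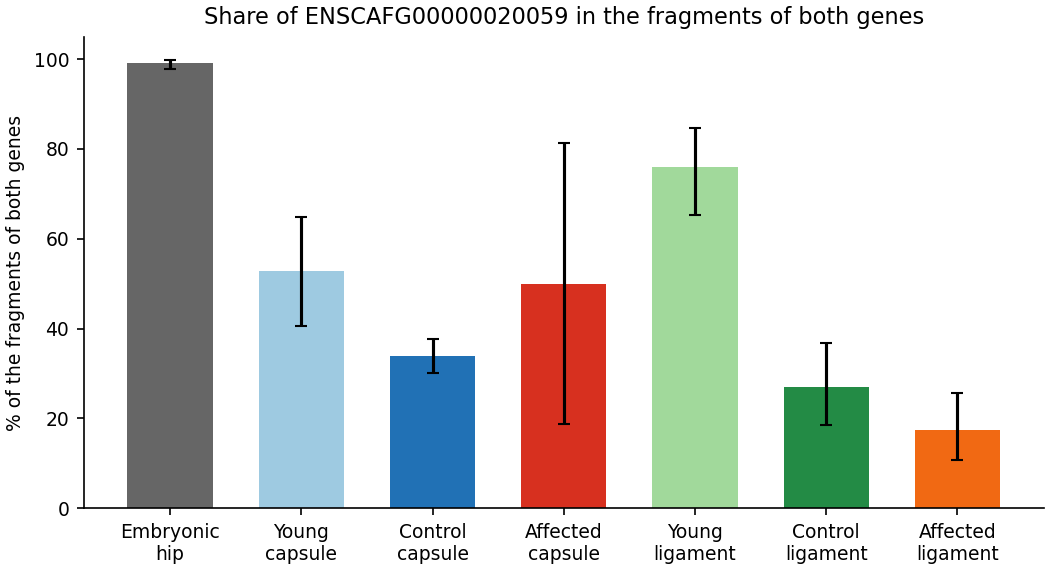
Share of ENSCAFG00000020059 (vertical axis, %) in the fragments of both genes, pooled over the libraries of each group, with exact 95% binomial intervals as bars, which cover counting error only. The share was 99.1% in embryonic hip, 75.9% in young and 27% in control ligament, and the wide bar of the affected capsule rests on 10 fragments.

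Over all 32 libraries the 2 genes were not close companions. The correlation of their log2 CPM was 0.291, and ENSCAFG00000020059 stood at place 2704 when 13964 other genes with a mean of at least 1 CPM were ordered by their likeness to ENSCAFG00000017302. The genes whose pattern was most like that of ENSCAFG00000017302 were ENSCAFG00000007557 (r = 0.816) and ENSCAFG00000000372 (r = 0.811). Those most like ENSCAFG00000020059 were ENSCAFG00000002951 (r = 0.841) and ENSCAFG00000024571 (r = 0.829). The libraries share dogs and group structure, and the correlations are a description of likeness. Without the 4 affected capsules they were 0.798, 0.862, 0.83 and 0.863 in the same order. ENSCAFG00000007557 then fell to place 26, and the other 3 stayed among the nearest 4.

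ENSCAFG00000000372 had its highest mean in control capsules as well, at 119 ± 26.4 CPM (n = 5), with 62.6 ± 19.6 CPM in affected (n = 4) and 40.3 ± 6.51 CPM in young capsules (n = 6). It differs from ENSCAFG00000017302 in being abundant in every group, with a lowest library of 30.8 CPM. Control ligaments had 93.5 ± 18 CPM (n = 3), up to 109 CPM, and overlapped control capsules, which began at 91.8 CPM. ENSCAFG00000000372 was chosen by its correlation with ENSCAFG00000017302 over these libraries, so the shared peak is no separate result. The neighbours of ENSCAFG00000020059 share its embryonic peak. ENSCAFG00000002951 had 23.1 ± 9.85 CPM in embryos (n = 3) and 6.81 ± 1.77 CPM in control capsules (n = 5), and ENSCAFG00000024571 had 10.4 ± 2.48 and 3.67 ± 2.14 CPM. In affected capsules they had 2.6 ± 1.75 and 1.35 ± 1.23 CPM (n = 4), lower in the mean than in controls. The groups overlapped for both genes, with affected values up to 4.87 and 3.08 CPM and control values from 4.33 and 0.79 CPM. Both were chosen by their correlation with ENSCAFG00000020059 over these libraries, so the shared peak and the lower mean are no separate results. The lowest affected capsule for ENSCAFG00000024571 had 0.193 CPM, which is under the limit of detection.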

How the data were processed

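The authors deposited a table of all samples with estimated counts of fragments, a scaled fragment signal and FPKM for every gene in each library, per the file headers. The estimated counts deposited by the authors were whole but for 0.332% of values (tolerance 1e-06), 0 of them in the 2 genes, and were rounded. The scaled signal deposited by the authors, divided by FPKM, gave the implied length, which varied by 11.7% between libraries for ENSCAFG00000017302 and by 0.000727% for ENSCAFG00000020059. The submitters' processing notes name cutadapt 1.8, Bowtie2 2.2, TopHat2 2.0.13, Cuffdiff 2.2.1 and the canFam3 genome. What each tool did, the gene models used and whether counting was stranded are not given in these sources, so fragments of overlapping, antisense or near-identical genes may be shared with either gene. Per the labels' protocols, ribosomal RNA was subtracted and directional libraries were made.

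Tests used edgeR 4.0.16 in R 4.3.3 (filterByExpr, TMM, robust quasi-likelihood F test, Benjamini-Hochberg adjustment, threshold 0.05), on the 2 groups compared, and p-values measure the spread between these dogs. A gene that the filter removed was fitted without it. Of 6 comparisons, ENSCAFG00000017302 passed the filter in 3 and ENSCAFG00000020059 in 4. A gene high in 1 group can pass through that group alone. DESeq2 1.42.0, limma 3.58.1 on log2(deposited FPKM + 0.1), other scalings, no filter, all groups in 1 fit, a replicate block and leaving out each library were alternatives. The filtered fits of some of the comparisons were tested on simulated data, with large changes set in genes of higher counts. Fits without the filter and changes in genes of few fragments were not simulated. Standard errors were derived from the F statistic.

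The 2 genes, the comparisons and the rule for other named genes were chosen with earlier results of these data known. That rule took, for each gene, the 2 genes with the highest Pearson correlation of log2 CPM (prior count 2) over 32 libraries, and the gene next below in capsules. Replicate numbers were checked for pairing by the correlation of deviations from group means. The 3 young dogs with both tissues pair by dog identifier in the labels (r of 0.109 to 0.492), and numbers paired no other groups.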

Additional observations from a re-analysis of the deposited data

Results flagged for a closer look

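Of 10 groups of 4 to 7 libraries examined (5 for each gene), 2 held a library far from the rest of its group. Chance marks about 5% of groups of normally distributed values, which CPM with values near 0 need not be, so that rate may not apply here. Control capsule replicate 4 had 39.3 CPM of ENSCAFG00000017302, with the other 4 control capsules between 9.28 and 17.8 CPM. Without it, the fitted log2 fold change of affected over control capsules was -5.66. Affected ligament replicate 6 had 3.32 CPM of ENSCAFG00000020059, with the other 6 between 0 and 0.493 CPM. Without it, the log2 fold change of 4 months over adult was -0.81 in place of 2.31.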

How the results depend on the processing

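Both calls of ENSCAFG00000020059 held under every alternative run, with log2 values of 3.85 to 4.22 (embryo against young capsule) and 2.57 to 3.57 (against young ligament) as each library was left out. Other ranges over libraries left out follow. For young against control ligament, ENSCAFG00000017302 ran from -3.90 to -1.86 and ENSCAFG00000020059 from -0.000687 to 2.84. For 4 months against adult they ran from -2.02 to 0.65 (5 fits, since the filter removed it in the other 2, and -0.07 by limma on FPKM) and from -0.81 to 3.40. For ENSCAFG00000017302 in embryo against young capsule the range was -3.59 to -1.93, and its call was also lost in 1 fit of all groups (-2.43, adjusted p = 0.0933) and with the replicate block (-2.56, adjusted p = 0.119). Outside the young dogs that block joins different dogs by number and keeps only libraries whose number occurs in both groups, so it is a weak check. Against young ligament its range was -3.01 to -0.64. For young capsule against young ligament, ENSCAFG00000017302 ran from 0.29 to 1.87 and ENSCAFG00000020059 from -1.39 to -0.44. For adult affected against control ligament they ran from -1.72 to -0.00296 and from -4.03 to -0.64. The young against control ligament value of ENSCAFG00000017302 was -2.78 by DESeq2 and -2.65 with all groups in 1 fit.

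Counts of genes called moved more. Young against control ligament gave 1310 genes, 2000 by DESeq2, 2032 with all groups, 814 with the replicate block and 617 to 1774 with a library left out. Adult affected against control ligament gave 0, 63, 1, 204 and 0 to 1850. Young capsule against young ligament gave 778, 1267 by DESeq2, 488 with the dog as replicate block and 387 to 875. The 4 months against adult count was 1841 and ran from 549 to 2203, and no paired analysis was possible because those groups share no replicate numbers. The description of the capsules gave 30 genes, 10 on FPKM and 2 to 41. There the 2 genes had -4.81 and -3.57 on FPKM, -6.78 to -5.66 and -5.89 to -4.58 with a library left out. The cause of these shifts was not tested. Outside the young dogs, pairing correlations ran from -0.19 to 0.3. Depth limits both genes: 14 of 32 libraries had at most 3 fragments of ENSCAFG00000017302 and 13 of ENSCAFG00000020059.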
